A study of Mus musculus with 10 samples.

Results

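The genes described here are 10 ubiquitin ligases tied to muscle wasting, taken by name from a fixed list rather than by their values: the MuRF genes Trim63, Trim55 and Trim54, the F-box genes Fbxo32, Fbxo30, Fbxo31, Fbxo21 and Fbxo40, and the ligases Trim32 and Traf6. All 10 were found among the 39179 gene identifiers of the read count tables, and all 10 were among the 12690 genes with enough counts to be tested. RNA was sequenced from the tibialis anterior, the shin muscle that lifts the foot, in 10 male mice. The libraries LLC 1 to LLC 6 came from mice given 750000 Lewis Lung Carcinoma (LLC) cells, a mouse lung cancer line, under the skin of each flank, and 4 libraries, Control 1 to Control 4, came from mice injected with the buffer alone. The sample labels give strain C57BL/6J, an age of 10 weeks and 23 days of tumor growth, whereas the series design gives C57BL/10, 8 weeks and 22 days. The LLC animals sequenced were among those that lived to the end of the experiment, and all tumors came from the same transplanted line.

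Ubiquitin ligases choose which proteins are tagged with ubiquitin, and many, but not all, of the tagged proteins are sent to the proteasome. Those of the TRIM family, such as Trim63 (MuRF1), carry a RING domain and bind their substrates directly, and MuRF proteins are found on the sarcomere. F-box proteins such as Fbxo32 (atrogin-1) instead bring the substrate to a larger complex built on Skp1, Cul1 and Rbx1. Transcripts of Trim63 and Fbxo32 are the standard markers of muscle atrophy, and FoxO transcription factors are known to drive both.

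Because FoxO factors are known to act on Trim63, the 250 bases before its start are shown, with the FoxO core (GTAAACA, searched on both strands) in capitals. The stretch is chr4:134314870-134315119 on the plus strand of GRCm38.p6, from RefSeq.
Trim63: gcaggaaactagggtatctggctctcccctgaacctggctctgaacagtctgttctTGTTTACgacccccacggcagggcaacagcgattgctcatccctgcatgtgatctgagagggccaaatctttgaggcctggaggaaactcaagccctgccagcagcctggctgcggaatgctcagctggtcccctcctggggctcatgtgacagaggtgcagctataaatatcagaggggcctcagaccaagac
The core lies on the minus strand, with its first base 194 bases before the start, directly after a match on the same strand to AGAACA, the core letters of glucocorticoid receptor sites, at 200 bases before the start. Promoter entries, running from 250 bases before to 50 after the start, were matched for 8 of the 10 genes, and Trim55 and Fbxo32 had none. Trim63 was the only 1 of these 8 genes with the FoxO core, which 3.65% of all 32851 promoters held. AGAACA was found in the entries of Trim63, Trim54 and Fbxo40, against 18.97% of all promoters, and an AP-1 match (TGANTCA) in that of Trim54, against 7.81%. No entry of these genes held the STAT letters TTCNNNGAA, and 5 of the 8 genes held an E-box (CANNTG), against 72.3% of all promoters. These matches describe letters only and do not show binding.

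Total counts ranged from 16693209 in LLC 1 to 21303084, and values per mouse are CPM, counts brought to a common library total after scaling by the trimmed mean of M-values (TMM). Muscle fibre markers, 8 genes such as Acta1 and Ckm, summed to 117785 to 125854 CPM in Control and 79955 to 126318 CPM in LLC, so the libraries hold muscle as labelled, while 4 cardiac markers summed to at most 9.09 CPM. LLC 1 stood apart from the other libraries. It had the lowest sum of fibre markers, the fewest counts and the smallest mitochondrial share (21.99%), and LLC 5 had the second smallest share (22.9%), against 25.8% to 27.9% in the other LLC libraries and 28.4% to 30.7% in Control. All 6 neutrophil markers were past the threshold used below as higher in LLC, as were 1.65% of all tested genes. Their sums were 0.688 to 1.92 CPM in Control and 31.2 to 68.3 CPM in LLC. All 5 fibro-adipogenic markers were past it as lower, as were 3.99% of all tested genes. Their sums were 236.99 to 303.7 CPM in Control and 46.8 to 80.1 CPM in LLC. The authors had reported S100a9, Csf3r, Cxcr2 and Mmp8 as higher and Col1a1 and Col3a1 as lower in these samples. Both counts were therefore partly set when the lists were written. Of the other marker lists, 1 of 5 tested macrophage genes, 1 of 3 endothelial, 1 of 2 Schwann and 2 of 2 satellite cell genes were past the threshold, all lower in LLC, and no adipocyte gene was. The part of these shifts in the results below was not tested, and in bulk muscle a change in cell number and a change in RNA per cell cannot be told apart.

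A comparison of LLC with Control asked which of the 10 ligase genes changed with the tumor. Fbxo32 rose and was the only gene of the 10 past the threshold, set at 1.5-fold or more with a p of at most 0.05 from the edgeR quasi-likelihood test after Benjamini-Hochberg adjustment. Trim63 had the largest difference but also the widest spread and did not pass. Across all tested genes 5.63% passed in either direction with 1.65% higher and 3.99% lower in LLC. Of the 10 genes 6 were higher (50.3% of all tested genes were) and 4 lower in LLC, and their median log2 fold change was 0.20 against 0.00 for all tested genes. Trim63, Fbxo32 and Fbxo31 had been reported by the authors as higher in these samples. Contrasts of the ligase list with all tested genes were therefore partly set when the list was written.

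**Figure D1:**
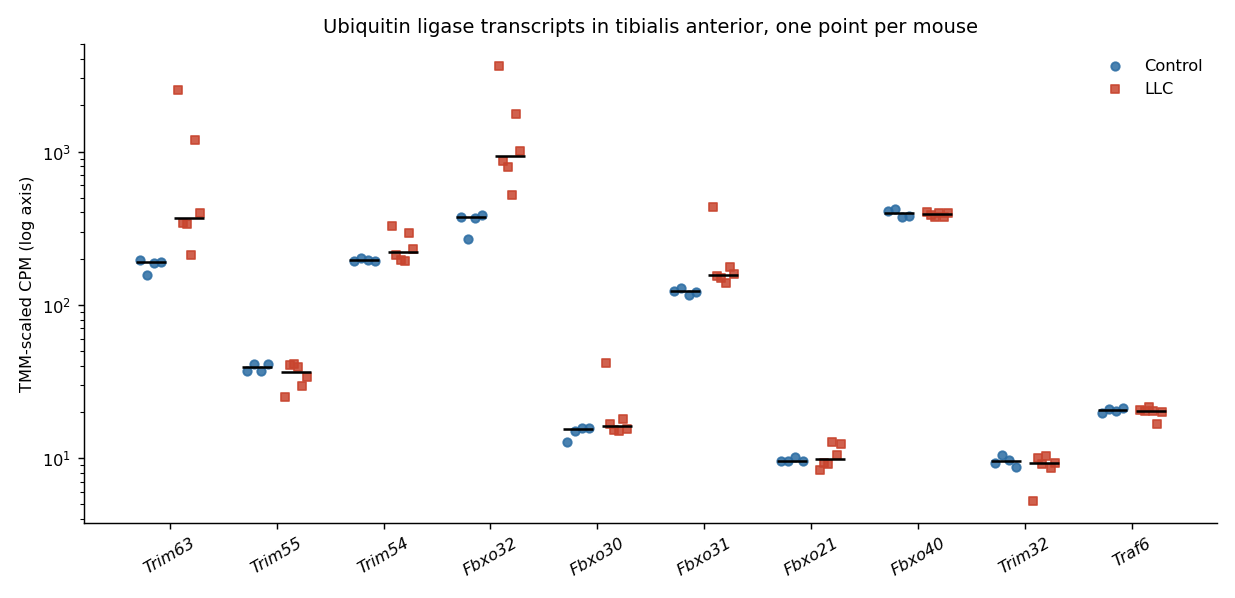
TMM-scaled CPM (log axis) of the 10 ligase genes in the tibialis anterior, with 1 circle per Control mouse (n = 4), 1 square per LLC mouse (n = 6) and black lines at the group medians. The groups do not overlap for Trim63, Fbxo32 and Fbxo31, and 2 LLC squares of Trim63 and Fbxo32 lie far above the rest.

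Fbxo32 (ENSMUSG00000022358, GRCm38 chromosome 15, 58175879 to 58214932, minus strand) encodes atrogin-1, whose known substrates include Eif3f and Myod1. Its level was 375.8, 269.5, 366.7 and 385.3 CPM in Control 1 to 4. In LLC 1 to 6 it was 3630.0, 865.4, 787.5, 517.0, 1756 and 1001 CPM. Every LLC mouse was above every Control mouse, and the highest LLC mouse, LLC 1, was 7.02 times the lowest, LLC 4. The log2 fold change was 2.03 ± 0.49 (SE), and the edgeR adjusted p was 0.0307. In limma voom with sample quality weights, which counts variable libraries less, the gene also passed but the log2 fold change was 1.25. Without LLC 1 the log2 fold change was 1.51 ± 0.28 (SE), with an edgeR adjusted p of 0.00545. The call was lost without any 1 of the Control mice (edgeR adjusted p of 0.0864 to 0.0980) and without LLC 5 (0.0667). Exons of Fbxo32 overlap the antisense gene Gm15943, whose counts were 21 to 38 in Control and 50 to 529 in LLC, against 5457 to 7095 and 10261 to 70590 for Fbxo32 itself.

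Trim63 (ENSMUSG00000028834, chromosome 4, 134315120 to 134329629, plus strand) encodes MuRF1, which is known to target myosin and other thick filament proteins. Its level was 194.96, 156.7, 187.5 and 190.9 CPM in Control 1 to 4. In LLC 1 to 6 it was 2529, 341.2, 336.2, 211.1, 1197 and 399.7 CPM. Again every LLC mouse was above every Control mouse, but LLC 4 stood at only 1.16 times the Control mean while LLC 1 stood at 13.9 times it. The log2 fold change was 2.19 ± 0.66 (SE), with an edgeR adjusted p of 0.0718. Leaving out either end of the LLC range brought the gene past the threshold. Without LLC 1 the log2 fold change was 1.46 ± 0.41 (SE) with an edgeR adjusted p of 0.0338, and without LLC 4 it was 2.40 ± 0.61 (SE) with an edgeR adjusted p of 0.0397. The gene did not pass without any 1 of the Control mice (edgeR adjusted p of 0.165 to 0.171). Nor did it pass without LLC 2 (0.0561), LLC 3 (0.0604), LLC 5 (0.131) or LLC 6 (0.0881). The DESeq2 Wald test called Trim63 from all 10 samples (adjusted p of 0.0197), together with Fbxo32 (0.000172), and no other gene of the 10. By that test 8.31% of the 12665 genes with an adjusted p passed, 3.06% of them as higher. In limma voom Trim63 also passed but its log2 fold change was 0.94 (adjusted p of 0.0153).

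**Figure D2:**
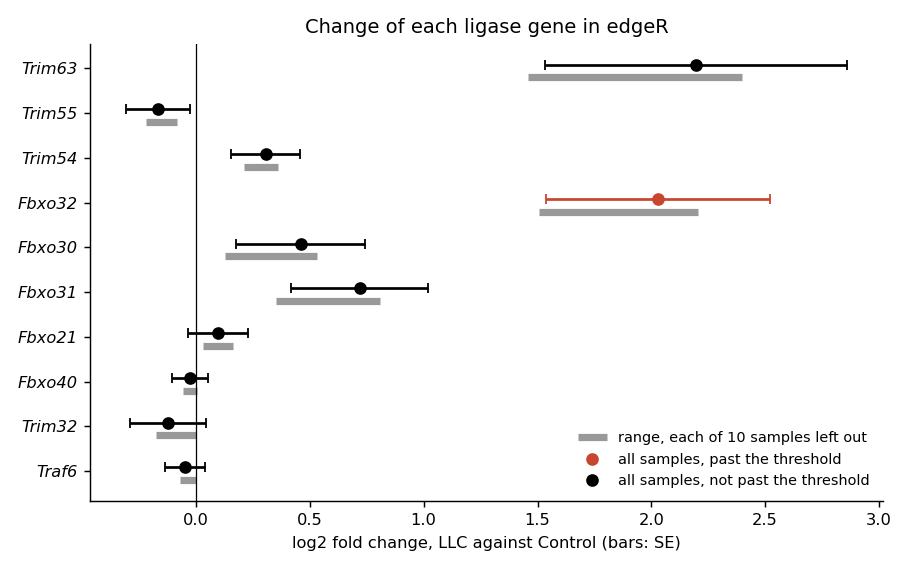
Log2 fold change of each ligase gene, LLC against Control, from edgeR (points with SE bars; red, past the threshold) over the range of the same value when each of the 10 samples was left out (grey). Trim63 at 2.19 and Fbxo32 at 2.03 stand apart from the other 8 genes, which lie between -0.17 and 0.72.

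The other MuRF genes differed from Trim63. Trim54 (ENSMUSG00000062077, chromosome 5, 31116712 to 31137630) encodes MuRF3, which also binds microtubules, and Trim55 (ENSMUSG00000060913, chromosome 3, 19644474 to 19692421) encodes MuRF2. Trim54 was at 191.99 to 200.6 CPM in Control and at 325.0, 210.5, 196.6, 194.3, 291.9 and 231.4 CPM in LLC 1 to 6. Trim55 was at 36.8 to 41.2 CPM in Control and at 24.9, 40.5, 40.7, 39.3, 29.3 and 33.6 CPM in LLC 1 to 6. For Trim54 the mice LLC 1, LLC 5, LLC 6 and LLC 2 lay above all Control mice, and for Trim55 the mice LLC 1, LLC 5 and LLC 6 lay below them, so both genes overlapped between the groups. Their log2 fold changes were 0.31 ± 0.15 and -0.17 ± 0.14 (SE), with edgeR adjusted p-values of 0.208 and 0.441. Exons of Trim54 overlap an antisense gene, Gm15469, which is not analysed here.

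Whether the MuRF genes changed unequally was tested on the log2 ratio of each pair within a mouse, which does not depend on how libraries are scaled. The ratio of Trim63 to Trim55 had a mean of 2.22 (SD 0.21, n = 4) in Control and 4.02 (SD 1.63, n = 6) in LLC, a difference of 1.80, with 6 of 6 LLC mice above all Control mice (two-sided exact permutation test, p = 0.00952, adjusted over 3 pairs 0.0143). No smaller p can come from the 210 splits. The margin was small, with the lowest LLC mouse at 2.42 and the highest Control mouse at 2.40. The mean ratio of Trim63 to Trim54 rose by 1.33, again with 6 of 6 LLC mice above all Control mice (exact permutation test, two-sided, p = 0.00952, adjusted 0.0143). For that pair the lowest LLC mouse was at 0.12 and the highest Control mouse at 0.02. The ratio of Trim55 to Trim54 differed by -0.47, with 3 of 6 LLC mice below all Control mice (exact permutation test, two-sided, p = 0.190). Trim63 therefore changed more than either paralog, while a difference between Trim55 and Trim54 was not shown. Without LLC 1 the differences were 1.27, 0.99 and -0.28.

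Divided by the length of annotated exon, so that genes can be compared in level, Trim54 was the most abundant MuRF transcript in Control. Trim54 took 63.3% ± 2.13 (SD, n = 4) of the summed MuRF level per kb in Control, Trim63 29.9% ± 2.48 and Trim55 6.82% ± 0.475. In LLC the share of Trim63 was 79.1% in LLC 1 and 66.3% in LLC 5, and 33.1% to 44.7% in the other 4 mice, against at most 31.7% in Control. Trim63 was thus the leading MuRF transcript in 2 of the 6 LLC mice, and Trim54 in the other 4 and in all Control mice. The summed level was 210.3 to 217.3 CPM per kb in Control and ran from 224.3 in LLC 4 to 1125 in LLC 1. These shares are given as a description, without a test.

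**Figure D3:**
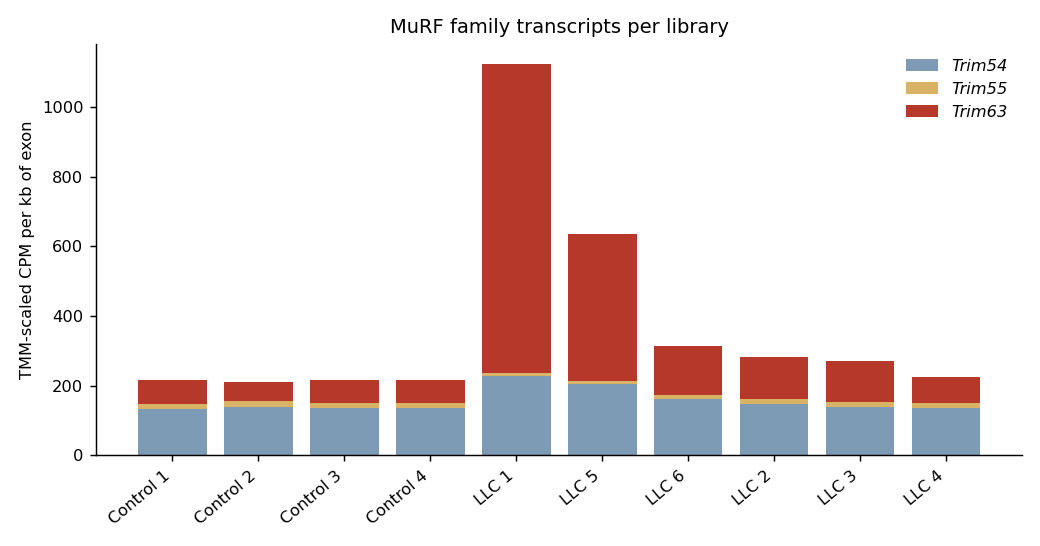
Stacked level of the 3 MuRF transcripts in each library, as TMM-scaled CPM per kb of annotated exon, with LLC mice ordered by Trim63. The bars of Control (210.3 to 217.3) and LLC 4 (224.3) are alike in height, and the bars of LLC 5 (635.4) and LLC 1 (1125) are made mostly of Trim63.

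Among the other F-box genes, Fbxo31 had the clearest difference. It encodes the substrate receptor known for the degradation of cyclin D1 (ENSMUSG00000052934, chromosome 8, 121549440 to 121578806). Its level was 115.9 to 129.1 CPM in Control and 431.4, 154.7, 149.3, 138.5, 174.9 and 159.5 CPM in LLC 1 to 6. All LLC mice were above all Control mice, with LLC 1 far above the others. The log2 fold change was 0.72 ± 0.30 (SE), with an edgeR adjusted p of 0.153, and the gene did not pass. Without LLC 1 the spread shrank and the adjusted p in edgeR was 0.0119, but the log2 fold change fell to 0.35 ± 0.08 (SE), under 1.5-fold. Fbxo31, Fbxo32 and Trim63 were the 3 genes of the 10 with no overlap between the groups, a pattern that 16.0% of all tested genes showed, 6.40% as higher in LLC and 9.57% as lower. The same 3 genes had an unadjusted p of 0.05 or less with a change of at least 1.5-fold, against 12.4% of tested genes in either direction and 4.93% as higher. Since the authors had reported each of these genes as higher in these samples, both contrasts with all tested genes were partly set when the list was written.

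Fbxo30 (ENSMUSG00000047648, chromosome 10, 11281330 to 11298052) encodes MUSA1, a ligase known to be held down by BMP signalling in muscle. It was at 12.8 to 15.7 CPM in Control and at 41.6, 16.6, 15.2, 15.1, 17.8 and 15.5 CPM in LLC 1 to 6. The groups overlapped, and the high value was in LLC 1. The log2 fold change of 0.46 ± 0.28 (SE) became 0.13 ± 0.09 (SE) without that mouse, with edgeR adjusted p-values of 0.298 and 0.360.

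Fbxo21 (ENSMUSG00000032898, chromosome 5, 117976730 to 118010201) encodes SMART, another F-box protein tied to atrophy after loss of the nerve. It was at 9.48 to 10.1 CPM in Control, and its LLC values had a lowest of 8.28, a median of 9.81 and a highest of 12.7 CPM, with mice on both sides of Control. Fbxo40 (ENSMUSG00000047746, chromosome 16, 36963460 to 36990467), a muscle-specific F-box protein that targets the insulin receptor substrate Irs1, was the most even of the 10 genes. Its Control values were 411.9, 418.8, 371.1 and 378.7 CPM, and its LLC values lay inside that range, from 373.95 in LLC 5 to 405.1 in LLC 1 with a median of 388.9 CPM. The log2 fold changes of Fbxo21 and Fbxo40 were 0.10 ± 0.13 and -0.03 ± 0.08 (SE), with edgeR adjusted p-values of 0.642 and 0.856. The SD of log2 CPM of Fbxo40 over the 6 LLC mice was 0.05, and 0.284% of tested genes had a smaller one.

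The last pair of genes are ligases of other kinds. Trim32 (ENSMUSG00000051675, chromosome 4, 65604986 to 65616238) acts on desmin and thin filament proteins and is mutated in a limb-girdle muscular dystrophy. It was at 8.66 to 10.5 CPM in Control and at 5.19, 9.996, 9.15, 10.3, 8.63 and 9.28 CPM in LLC 1 to 6, so that LLC 1 was low and the other LLC mice lay near or within the Control range. Traf6 (ENSMUSG00000027164, chromosome 2, 101678429 to 101701669), which links cytokine receptors to NF-κB, was at 19.5 to 21.3 CPM in Control and at 16.6 CPM in LLC 5 against 19.8 to 21.5 CPM in the other LLC mice. The log2 fold changes of Trim32 and Traf6 were -0.12 ± 0.17 and -0.05 ± 0.09 (SE), with edgeR adjusted p-values of 0.646 and 0.743.

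The order of the 10 genes by level per kb of exon was also compared. In Control, Trim54 came first at 136.0 ± 2.62 CPM per kb (SD, n = 4), followed by Fbxo40 at 71.6 ± 4.30, Trim63 at 64.2 ± 6.15 and Fbxo32 at 50.1 ± 7.71. The values of Fbxo40 and Trim63 overlapped between mice, as did those of Trim63 and Fbxo32. Fbxo31 at 22.3 ± 0.984 and Trim55 at 14.7 ± 0.903 CPM per kb came next, apart from each other. Trim32, Fbxo30 and Traf6 overlapped, at 2.95 ± 0.234, 2.84 ± 0.267 and 2.59 ± 0.0954, and Fbxo21 came last at 1.75 ± 0.0528 CPM per kb. By LLC medians the leading genes were Trim54 (153.8 CPM per kb), Fbxo32 (133.8) and Trim63 (130.3), with Fbxo40 at 70.5. Among 12593 tested genes with a known length, Trim63 held a place between 411 and 510 in Control mice, 366 in LLC 4 and 31 in LLC 1. Fbxo32 held 498 to 708 in Control, 367 in LLC 4 and 55 in LLC 1. Fbxo40 held 373 to 418 in Control and 377 to 460 in LLC.

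The next question was how uniform the response was among the tumor-bearing mice. The mice did not respond alike, and several ligase genes ranked them in the same order. LLC 1 was highest, followed by LLC 5, LLC 6, LLC 2, LLC 3 and LLC 4, for each of Trim63, Fbxo32, Fbxo31 and Trim54. The coefficient of variation over LLC mice was 108.0% for Trim63 and 81.1% for Fbxo32, against 9.58% and 15.4% in Control. Without LLC 1 it was 79.9% and 47.2%. On the log2 scale 9 of the 10 genes, all but Fbxo40, had the larger SD in LLC, as did 85.1% of all tested genes. At 1.36 and 1.00, the SDs of Trim63 and Fbxo32 in LLC exceeded those of 99.6% and 98.1% of tested genes.

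**Figure D4:**
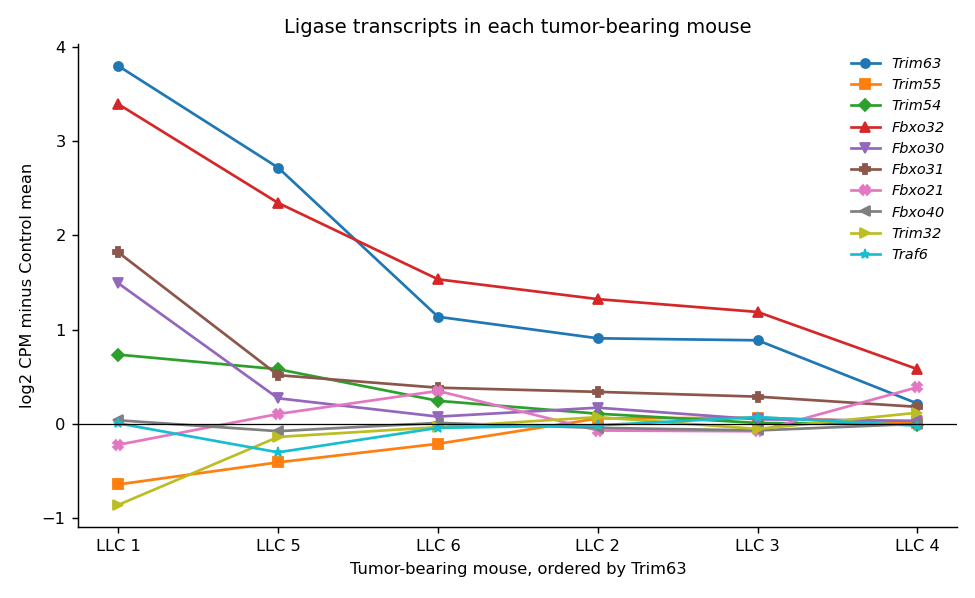
Log2 CPM minus the Control mean for the 10 ligase genes in each LLC mouse, with mice ordered by Trim63 and 1 line per gene. Trim63 runs from 3.80 in LLC 1 to 0.22 in LLC 4 and Fbxo32 from 3.39 to 0.58, while Fbxo40 stays at the Control mean and Trim55 and Trim32 lie below it in LLC 1.

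The relation of Trim63 to each of the other 9 genes was measured over the 6 LLC mice on log2 CPM. A high Pearson's r with Trim63 was not particular to ligases, since 726 of 10315 other genes had an r above 0.95. How many genes had a negative r, or a positive r under 0.95, of the sizes given here was not counted. The p-values therefore do not set these ligases apart from other genes. With Fbxo32 Pearson's r was 0.991 (exact permutation test, two-sided, p = 0.00139, 0.00417 after adjustment over 9 relations) and Spearman's rho was 1 (exact permutation p = 0.00278, adjusted 0.00833). Without LLC 1 and LLC 5, the mice farthest from the median of Trim63, r over the 4 left was 0.993. Fbxo31 (r = 0.883, without the 2 mice 0.971) and Trim54 (r = 0.978, without them 0.755) also had a rho of 1, with the same exact permutation p-values. Fbxo30 had r = 0.865 and rho = 0.943 (exact permutation p = 0.00694 and 0.0167, adjusted 0.0104 and 0.0375). Its r without the 2 mice was 0.458, but the 4 left are too few to say what the relation rested on.

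Trim55 and Trim32 ran the other way. Their r with Trim63 was -0.948 and -0.899 (exact permutation p = 0.00694 and 0.00556, adjusted 0.0104 for both), and rho was -0.829 for both (exact permutation p = 0.0583, adjusted 0.0875). Without the 2 mice r was -0.442 and -0.772. For Fbxo21, Fbxo40 and Traf6 r was -0.577, 0.229 and -0.360, with rho of -0.486, 0.257 and -0.2 (exact permutation p from 0.232 to 0.714, adjusted from 0.298 to 0.714), and r was -0.380, -0.195 and 0.03 without the 2 mice. LLC 1 and LLC 5 were also the 2 LLC libraries with the smallest mitochondrial share and the largest TMM factors, 1.17 and 1.07 against 0.967 to 1.05. The part of these library differences in the relations was not tested.

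The genes whose pattern over the 6 LLC mice was most like that of Trim63, among 10315 other genes, were Txn1, Entr1 and Rps27rt, with r of 0.999, 0.999 and 0.998. Those most like Fbxo32 were Fam8a1, Tmed10 and Mt1, with r of 1.00, 0.999 and 0.997. A likeness of this size was common, since 726 genes had an r above 0.95 with Trim63 and 718 with Fbxo32. The sizes of the changes were unlike. The metallothionein gene Mt1 was at 4.00 ± 0.973 CPM in Control (SD, n = 4) and ran from 2.87 to 140.8 CPM in LLC, while Tmed10, which encodes a carrier of secretory transport, went from 100.4 ± 1.81 CPM in Control to at most 125.8 CPM in LLC. Of these 6 genes, Fam8a1 passed the adjusted p in edgeR (0.0430) with a log2 fold change of 0.60 ± 0.16 (SE). Rps27rt is a close copy of a ribosomal protein gene, so its counts may include reads of that gene.

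The genes that work around these ligases were then examined as lists by role, described by counts and medians without a set test. Across all tested genes 5.63% passed in edgeR and 8.31% in DESeq2, the latter as 3.06% higher and 5.24% lower. The partners of the F-box complex included Skp1, which was matched under the symbol Skp1a. Of the 7 matched partners, such as Cul1 and Rbx1, none passed in edgeR's quasi-likelihood test or in DESeq2. Of 14 ubiquitin-activating and ubiquitin-conjugating enzymes none passed in either. At an unadjusted p of 0.05 or less in edgeR, whatever the size of the change, there were 2 and 3, against 27.4% of all tested genes, and the median log2 fold changes were 0.12 and 0.06. Of 23 tested ligases of other families in muscle none passed in edgeR, against 1 lower gene in DESeq2, with 5 at an unadjusted p of 0.05 or less and a median of -0.01. Without LLC 1, 1 of these 23, Fbxl22, passed as lower, as did 5.37% of the 12624 genes tested in that fit. The tested partners of Traf6 in signalling were 14, of which none passed in edgeR, against 1 higher gene in DESeq2, with 6 at an unadjusted p of 0.05 or less and a median of 0.15. At the shares of all tested genes that passed, lists this short may hold none. These counts therefore do not set the lists apart from all genes.

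Of 21 regulators placed upstream of these ligases, 16 were higher and 5 lower in LLC, while 50.3% of all tested genes were higher. Past the threshold, 2 were higher and 1 was lower (1.65% and 3.99% of all tested genes were). The median log2 fold change of the list was 0.57 against 0.00 for all genes. At an unadjusted p of 0.05 or less there were 16 of the 21, against 27.4% of all tested genes. The authors had reported Foxo1, Foxo6, Myog, Stat3, Rela, Relb and Nfkb2 of this list as changed in these samples. An excess over all tested genes was therefore partly set when the list was written. Myog, the myogenic factor known to act on the Trim63 and Fbxo32 promoters after loss of the nerve, was at 1.11 to 2.03 CPM in Control, and in LLC its lowest, median and highest values were 2.97, 3.51 and 4.63 CPM. Its groups did not overlap, and its log2 fold change was 1.19 ± 0.19 (SE), with an edgeR adjusted p of 0.00336. Foxo6 was at 4.11 to 7.73 CPM in Control, and its LLC values of 0.206, 1.41 and 3.24 CPM (lowest, median, highest) all lay below them. Its log2 fold change was -1.95 ± 0.44 (SE, edgeR adjusted p of 0.0230). Stat3, the transcription factor of interleukin-6 signalling, also passed, with the groups apart at 39.3 to 40.3 and 50.2 to 83.1 CPM. Exons of Stat3 overlap the antisense gene Stat5a. In DESeq2, 5 regulators passed as higher and 1 as lower (3.06% and 5.24% of all genes), and in edgeR without LLC 1 the same split was 5 and 1, with Cebpd, Fkbp5 and Foxo1 joining, while 2.28% and 5.37% of all genes passed in that fit.

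Of 23 reported substrates of these ligases, mostly sarcomere genes, 18 were lower and 5 higher in LLC. Past the threshold, 2 were lower and none was higher. The median log2 fold change of the list was -0.40 against 0.00 for all genes. As lower, 3.99% of all tested genes passed. At an unadjusted p of 0.05 or less there were 13 of the 23, against 27.4% of all tested genes. The authors had reported Myh1, Myh2, Myh7, Myl1 and Myl3 of this list as lower in these samples. They also named Actn2 among predicted microRNA targets, which they had filtered by differential expression in these samples. The contrast with all tested genes was therefore partly set when the list was written. Actn2, the Z-disc protein alpha-actinin 2, was at 825.1 to 1112 CPM in Control and at 555.2 to 686.2 CPM in LLC, with no overlap and a log2 fold change of -0.63 ± 0.11 (SE, edgeR adjusted p of 0.00546). Myl2, the slow-fibre and cardiac myosin light chain, was at 0.931 to 3.95 CPM in Control and 0.411 to 1.04 CPM in LLC, so that its groups overlapped, with a log2 fold change of -1.66 ± 0.37 (SE, edgeR adjusted p of 0.0221). Exons of Myl2 overlap those of the antisense gene Ccdc63. Without LLC 1, 6 of the 23 passed as lower, namely Actn2, Ccnd1, Myh1, Myh2, Myl2 and Myl3, against 5.37% of all genes in that fit, and in DESeq2 4 passed as lower, against 5.24%. These are transcript levels and say nothing of the rate at which the proteins are degraded.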

How the data were processed

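Each of the 10 samples gave 1 deposited table of whole-number read counts per gene. The authors sequenced stranded total RNA libraries from both ends, mapped reads to mm10 with TopHat2 and counted them for RefSeq genes with HTSeq at default settings, although the tables list Ensembl identifiers. HTSeq counts by strand in its default settings, but how the strand was handled in the deposited counts was not checked. The versions of TopHat2 and HTSeq and the annotation release are not given in the sources used here. Overlapping genes are named. Symbols, coordinates and exon lengths came from GENCODE M21 on the same build, with 37607 identifiers matched to a symbol.

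Genes were kept by filterByExpr (minimum count 10) and scaled by TMM, and LLC was compared with Control by edgeR 4.0.16 with group as the only term. Log2 CPM used a prior count of 2, and SEs were derived from the F statistic. Alternatives were DESeq2 1.42.0, limma 3.58.1 voom with quality weights, other scalings, filters and thresholds, and each sample left out. The fit was first tested on simulated counts with known changes. Ratios and correlations were tested by exact permutation (SciPy 1.17.1). A library detects 3 counts at 0.141 to 0.180 CPM, for counting error only. No pair of replicates agreed within sampling noise (chi-square per degree of freedom of at least 3.71).

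The genes, lists and tests were chosen with earlier results of these data known. Genes named were the 10 ligases, up to 3 genes past the threshold per direction in each list, and the 3 genes most like Trim63 and Fbxo32 in LLC with an average log2 CPM of at least 1. Genes named as called without LLC 1 were chosen after their values were seen. The labels name separate samples of each group.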

Additional observations from a re-analysis of the deposited data

Results flagged for a closer look

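The log2 CPM of the 10 ligase genes and the 3 MuRF log2 ratios were searched for single distant samples. The measure was a gap ratio, which is the distance between the outermost sample and the one next to it as a share of the whole spread of that group. Of 26 groups searched 5 had such a sample, against 1.3 expected at 1 in 20 by chance. LLC 1 was the highest of 6 for Fbxo30 (gap ratio 0.836) and for Fbxo31 (0.795), and the lowest of 6 for Trim32 (0.737). LLC 5 was the lowest of 6 for Traf6 (0.694). Control 2 was the lowest of 4 for Fbxo32 (0.861), at 269.5 CPM. Neither Trim63 nor Fbxo32 had a distant sample in LLC by this measure, since LLC 5 lay between LLC 1 and the other mice for both.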

How the results depend on the processing

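The number of ligase genes past the threshold was 1, and it was 2 with no filter beyond 1 count, with DESeq2 and with limma voom, 3 with an unadjusted p and 0 with the replicate block; leaving out each sample gave 0 to 2. Over all genes the counts of these fits also differed from 715, with 800, 1052 and 997 in the first 3, and 966 and 805 without LLC 1 and LLC 4, the fits that gave 2. The genes that changed sides were Trim63, gained in 5 of 19 alternatives, and Fbxo32, lost in 6 of 19. In each of the 6 fits that called none of the 10 genes, 1 to 3 had an unadjusted p of 0.05 or less and 1.5-fold. The replicate block called 112 genes, all 112 among the 715, and lost Fbxo32 (adjusted p of 0.224). The log2 fold changes of Fbxo32 and Trim63 were 1.60 and 1.37 in it. The numbers do not pair the animals: same-numbered samples had correlated deviations of -0.08 to 0.13, and 1 of 4 Control samples correlated best with its own number. Counts over all genes also moved with at least 10 counts in every sample (475), with an unadjusted p (1572) and without any 1 Control sample (415 to 438). With limma voom the log2 fold change of Trim63 was 0.94 and that of Fbxo32 1.25; the cause was not tested. Signs near 0 turned for Fbxo40 without Control 2 (0.00323; -0.0551 to 0.00323 over samples left out), for Trim32 in limma voom (0.00271) and for Traf6 with the replicate block (0.0102), and for the correlations of Trim63 with Fbxo40 (-0.195) and Traf6 (0.0324) without 2 mice. The MuRF ratios kept their direction and side of the threshold in all 11 alternatives each. Without LLC 1, an alternative added after the data were seen, other muscle ligases past the threshold went from 0 to 1, upstream regulators from 3 to 6 and substrates from 2 to 6, while all genes went from 715 to 966.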
